A study of Homo sapiens with 6 samples.

Results

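Ephrins are membrane-bound ligands that are read by Eph receptors on the surface of a touching cell. The genes described here are all 8 ephrin genes of the array (EFNA1, EFNA2, EFNA3, EFNA4, EFNA5, EFNB1, EFNB2 and EFNB3) and the receptor genes EPHA4 and EPHB6, 10 genes of the 19740 that could be named on the array. They were chosen by a measured value of the same arrays: EFNA3 was higher with IL-17A, and the other ligand genes and the receptors EPHA4 and EPHB6 were taken with it, with results of these arrays known. The differences of these 10 genes are therefore given as a description, with no p-value, and where it is said that one of them was called, this counts genes past the thresholds and is no test of that gene. SU-DHL-2 is an established human diffuse large B-cell lymphoma (DLBCL) line. The treated group was 3 samples of SU-DHL-2 cells kept with IL-17A, a T-cell cytokine, at 200 pg/ml for 72 h, and the control group was 3 samples kept for 72 h without it. The study used the arrays to ask which genes respond to IL-17A in these lymphoma cells. The labels call the treatment in vivo whereas the methods describe a culture, and nothing in them says that the samples were separate cultures, so that the errors and p-values measure the spread between these samples, which may be technical.

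Ephrin-A ligands are held in the membrane by a lipid anchor and bind mainly EphA receptors, whereas ephrin-B ligands cross the membrane and bind mainly EphB receptors. Binding starts forward signaling in the cell that carries the receptor and reverse signaling in the cell that carries the ligand, and it steers cell adhesion, repulsion and migration. In the lymphoid organs, ephrins and Eph receptors are best known for contacts between lymphocytes, follicular cells and the vessel wall.

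EFNA4, EFNA3 and EFNA1 lie next to each other in this order on chromosome 1, and the promoters of these 3 genes and of EFNA2 are shown because EFNA3 and EFNA2 had the largest differences among the tested ligands, in opposite directions, while EFNA4 and EFNA1 lie on either side of EFNA3. The sequences are from RefSeq (GRCh38.p14, plus strand, 250 bases before the gene start and 50 bases after it). Capitals mark matches, on either strand, of the GC box GGGCGG, of the C/EBP-type motif TTNNGCAA and of the kappaB consensus. NF-kappaB and C/EBP proteins are the best known transcription factors downstream of the IL-17 receptor.
EFNA4, chr1:155063490-155063789: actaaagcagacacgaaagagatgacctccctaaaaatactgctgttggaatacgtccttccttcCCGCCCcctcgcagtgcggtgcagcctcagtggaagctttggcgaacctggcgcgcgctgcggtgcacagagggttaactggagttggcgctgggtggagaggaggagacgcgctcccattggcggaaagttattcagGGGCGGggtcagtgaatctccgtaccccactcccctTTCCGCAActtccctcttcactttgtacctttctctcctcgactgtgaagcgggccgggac
EFNA3, chr1:155078587-155078886: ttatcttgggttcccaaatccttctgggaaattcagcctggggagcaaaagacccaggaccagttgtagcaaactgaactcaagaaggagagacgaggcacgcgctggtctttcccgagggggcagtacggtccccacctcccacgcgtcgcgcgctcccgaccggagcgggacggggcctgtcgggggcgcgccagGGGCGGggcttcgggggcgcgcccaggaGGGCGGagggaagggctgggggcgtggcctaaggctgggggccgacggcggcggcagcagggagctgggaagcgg
EFNA1, chr1:155127626-155127925: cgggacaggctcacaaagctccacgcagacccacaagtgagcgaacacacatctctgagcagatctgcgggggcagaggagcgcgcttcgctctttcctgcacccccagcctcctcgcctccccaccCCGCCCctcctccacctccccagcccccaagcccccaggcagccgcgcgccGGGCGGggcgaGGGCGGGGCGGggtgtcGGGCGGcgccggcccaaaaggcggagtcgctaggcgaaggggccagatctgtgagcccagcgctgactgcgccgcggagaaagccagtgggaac
EFNA2, chr19:1285623-1285922: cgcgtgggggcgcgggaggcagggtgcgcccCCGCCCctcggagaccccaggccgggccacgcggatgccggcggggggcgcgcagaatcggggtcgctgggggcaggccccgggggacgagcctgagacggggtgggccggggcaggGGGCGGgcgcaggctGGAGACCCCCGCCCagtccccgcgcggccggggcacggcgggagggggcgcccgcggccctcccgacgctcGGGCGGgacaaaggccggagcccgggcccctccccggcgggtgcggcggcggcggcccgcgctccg

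The EFNA3 window held 2 GC boxes, at -53 and -25 (positions of the leftmost base, with the gene start as 0), and no match of the kappaB consensus, of TTNNGCAA, of ACGTG or of TATAAA. The EFNA4 window held 2 GC boxes and 1 TTNNGCAA match close before its start. The EFNA1 window held 5 GC boxes, of which the pair at -61 and -56 shares a base. In the EFNA2 window were 4 GC boxes and 1 match of the kappaB consensus, read on the minus strand at -87, which overlaps a GC box. Of 35116 RefSeq promoter windows of the same length, 45.0% held the GC box, 10.5% TTNNGCAA, 5.91% the kappaB consensus, 21.4% ACGTG and 11.5% TATAAA. The GC content was 85.3% for EFNA2, 71.7% for EFNA1, 69.3% for EFNA3 and 58.3% for EFNA4, against a median of 58.7% over all windows. A match of letters is a description of the window and says nothing about binding.

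RNA of each sample was hybridized to a one-colour whole human genome array of its own. Between 23570 and 24077 of 34127 probes were well above background per array, with 23570 to 23718 on the IL-17A arrays and 23729 to 24077 on the control arrays, and the arrays correlated at 0.9933 to 0.9971 across tested probes. IL-17A replicate 1 was read in the same scan as the 3 control arrays, and IL-17A replicates 2 and 3 in another, so that scan and treatment overlap in part. All 10 B lineage markers were well above background on all 6 arrays, as were 7 of 10 endothelial, 7 of 10 T and NK cell, 4 of 9 monocyte and 2 of 10 mesenchymal markers. A gene was called where it differed by 1.5-fold or more with an unadjusted limma p under 0.05. Of 14747 tested genes, each at its brightest tested probe, 1.92% were called, 0.814% as higher and 1.11% as lower with IL-17A. At a Benjamini-Hochberg adjusted limma p under 0.05 the shares were 7.85% in either direction, 4.37% higher and 3.48% lower. The 3 IL-17A arrays lay wholly above the 3 control arrays for 21.4% of the tested genes and wholly below them for 19.3%.

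EFNA3, an ephrin-A ligand, was higher on every IL-17A array than on every control array, and EFNA2 and EPHB6 were lower. The intensity of EFNA3 was 42.7, 35.4 and 37.9 on IL-17A replicates 1, 2 and 3, and 27.9, 26.9 and 23.4 on control replicates 1, 2 and 3. On the normalized log2 scale these were 5.42, 5.12 and 5.26 with IL-17A, and 4.69, 4.79 and 4.58 in the controls. The groups did not overlap, and the lowest IL-17A array stood clear of the highest control array on both scales. The means were 5.27 ± 0.15 with IL-17A and 4.69 ± 0.11 in the controls (SD, n = 3 each), a log2 difference of 0.58 (SE 0.09) or 1.497-fold, just under the 1.5-fold threshold. With the authors' own normalized values the log2 difference was 0.59, and EFNA3 was called as higher, so that its call turns on the processing. Within the scan that held both groups, IL-17A replicate 1 was 0.73 above the control mean on the log2 scale, and replicates 2 and 3 of the other scan were 0.51 above it. The EFNA3 probe has 1 spot per array and was well above background on all 6 arrays. Over 41 probes of like signal that the array prints 10 times, the median SD between spots of 1 array was 0.12 on the log2 scale (range 0.05 to 0.76). Without 1 array, the log2 difference was 0.51 to 0.65. RefSeq lists a transcript that reads from EFNA4 into EFNA3, and whether the EFNA3 probe also reports it is not given in the sources used here.

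**Figure D1:**
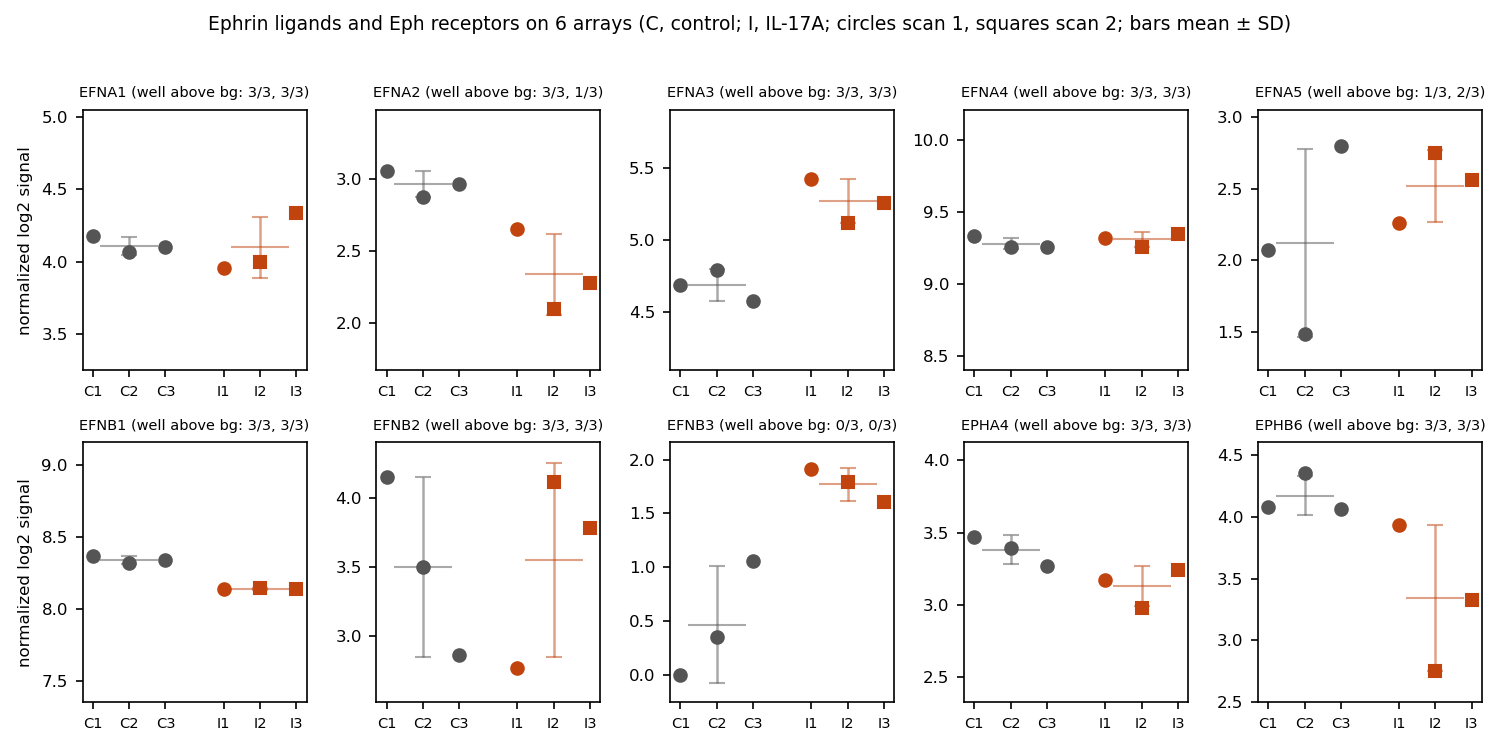
Normalized log2 signal (vertical axis) of the 10 genes on the 6 arrays (horizontal axis), with controls in grey and IL-17A in orange. The scans are circles and squares, and bars give the mean and SD of 3 arrays. The vertical axis spans a wider range for EFNA5, EFNB2, EFNB3 and EPHB6 than for the other genes. The counts above each panel are the arrays well above background, control first. EFNA3 lay at 5.12 to 5.42 with IL-17A and 4.58 to 4.79 in the controls, EFNA4 at 9.26 to 9.35 on all 6 arrays, and EFNB3 was not well above background on any array.

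At the ligand genes on either side of EFNA3 the groups overlapped. EFNA4 is the ligand gene before it, and its normalized log2 signal was 9.32, 9.26 and 9.35 with IL-17A and 9.33, 9.26 and 9.26 in the controls. The arrays of the groups overlapped, and the log2 difference was 0.03 (SE 0.04). EFNA1, the ligand gene after it and known as a TNF-inducible gene of endothelial cells, had 3.96, 4.00 and 4.34 with IL-17A and 4.18, 4.07 and 4.10 in the controls. Here the IL-17A arrays held both the lowest and the highest value, and the log2 difference was -0.01 (SE 0.11). The EFNA1 probe is printed 10 times on the array, and by the mean of the 3 arrays per group 6 of its spots were higher and 4 lower with IL-17A (median 0.06, range -0.36 to 0.40 on the log2 scale).

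The genes on either side of this ligand cluster were tested by limma, since they played no part in the choice, and none was called or had an adjusted p under 0.05. In gene order, DCST2 differed by -0.30 (adjusted p = 0.272), DCST1 by -0.57 (adjusted p = 0.299), the protease gene ADAM15 by -0.04 (adjusted p = 0.514), SLC50A1, a sugar transporter, by 0.14 (adjusted p = 0.225), DPM3 by 0.01 (adjusted p = 0.883) and KRTCAP2 by 0.08 (adjusted p = 0.375), all log2 differences at the brightest probe. A dimmer probe of DPM3 differed by -0.27 (limma, adjusted p = 0.130) and one of ADAM15 by 0.06.

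EFNA2, another ephrin-A ligand, was lower with IL-17A but close to the background. Its intensity was 6.09, 4.15 and 4.68 on the IL-17A arrays and 8.96, 7.18 and 7.90 on the control arrays, while the dimmest probe marked as well above background read 4.46 to 4.61, depending on the array, which is no fixed limit for other probes. The probe was well above background on 1 of 3 IL-17A arrays and on all 3 control arrays. On the normalized log2 scale it had 2.65, 2.10 and 2.28 with IL-17A and 3.05, 2.87 and 2.96 in the controls. The IL-17A arrays were all below the controls, replicate 1 least so. The means of 2.34 ± 0.28 and 2.96 ± 0.09 (SD, n = 3 each) differed by -0.61 (SE 0.15), or 1.53-fold. EFNA2 passed the filter on detection through the control arrays, where it is high, and its level on the IL-17A arrays is poorly known, so that its call carries no weight. Within the shared scan, IL-17A replicate 1 was -0.31 from the control mean, and replicates 2 and 3 were -0.77 from it. The EFNA2 probe has 1 spot per array, and probes of like signal that are printed 10 times had a median SD between spots of 0.40 on the log2 scale (range 0.10 to 1.17). EFNA2 was not called with the scan as a block, with normexp background correction, or without control replicate 1 or either of IL-17A replicates 2 and 3.

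EFNA5, a ligand best known from axon guidance, was near the background too. It had 2.26, 2.75 and 2.56 on the normalized log2 scale with IL-17A and 2.07, 1.48 and 2.80 in the controls, and was well above background on 2 IL-17A arrays and 1 control array. The groups overlapped, with the highest and the lowest value both among the controls, and the log2 difference of 0.40 had an SE of 0.34. It was 0.09 without control replicate 2 and 0.75 without control replicate 3, where EFNA5 was called as higher. Among the 5 ephrin-A genes, all tested, 3 were thus higher and 2 lower with IL-17A, with a median log2 difference of 0.03.

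Of the ephrin-B ligands, EFNB1 had the tightest values. This transmembrane ligand gave intensities of 285, 294 and 278 on the IL-17A arrays and 353, 302 and 311 on the control arrays. The normalized log2 signal was 8.14, 8.15 and 8.14 with IL-17A and 8.37, 8.32 and 8.34 in the controls. The groups did not overlap on either scale, and after normalization the 3 IL-17A arrays were nearly equal. The means of 8.14 ± 0.01 and 8.34 ± 0.03 (SD, n = 3 each) differed by -0.20 (SE 0.04), a fall of 12.8%, and the value was -0.20 within the shared scan as well as for replicates 2 and 3.

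EFNB2, an ephrin-B ligand known from arterial endothelium, varied most between arrays among the tested ephrins. Its intensity was 6.59, 17.2 and 13.3 with IL-17A and 19.3, 11.1 and 7.40 in the controls, well above background on all 6 arrays. High and low arrays occurred in both groups, and the log2 difference of 0.05 (SE 0.46) was -0.73 for IL-17A replicate 1 within the shared scan and 0.44 for replicates 2 and 3. EFNB3 was not well above background on any array, with intensities of 2.94 to 3.59 with IL-17A and 1.00 to 2.36 in the controls, where 1.00 is the lowest value a signal was allowed. It was not tested, and no fold change is given for it.

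Both receptor genes chosen were lower on every IL-17A array than on every control array, as were 19.3% of all tested genes. EPHB6 is a receptor whose kinase domain is catalytically inactive and which is known from T cells. Its intensity was 14.8, 6.58 and 9.80 on the IL-17A arrays and 18.4, 19.7 and 16.5 on the control arrays. The normalized log2 signal was 3.93, 2.75 and 3.33 with IL-17A and 4.08, 4.35 and 4.06 in the controls. The controls lay close together, whereas the IL-17A arrays spread widely, with replicate 1 just below the controls and replicate 2 far below them. The means of 3.34 ± 0.59 and 4.17 ± 0.16 (SD, n = 3 each) differed by -0.83 (SE 0.30), 1.78-fold lower. The EPHB6 probe has 1 spot per array, so that spread between spots and spread between samples cannot be told apart for it. The difference was -0.24 for replicate 1 within the shared scan and -1.12 for replicates 2 and 3. EPHB6 was not called with the scan as a block, with the methods' t-test, with no filter on detection, with normexp, with the replicate number as a block, or without any 1 of IL-17A replicates 2 and 3 and control replicates 1, 2 and 3.

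EPHA4, a receptor that binds ligands of both classes, read 3.17, 2.98 and 3.24 on the 3 IL-17A arrays (normalized log2 signal) and 3.47, 3.39 and 3.27 on the control arrays. The gap between the groups was narrow, since IL-17A replicate 3 and control replicate 3 were nearly level. The means of 3.13 ± 0.14 and 3.38 ± 0.10 (SD, n = 3 each) differed by -0.25 (SE 0.09), a fall of 15.7%. Its probe is also printed 10 times, and the median spot had an intensity of 8.69, 7.36 and 8.93 with IL-17A and 12.2, 9.77 and 9.47 in the controls. By the mean of the arrays per group, 8 of the 10 spots were lower and 2 higher with IL-17A, with a median log2 difference of -0.32 and a range of -0.59 to 0.45. The spots of 1 array are repeats of 1 sample and not replicates.

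**Figure D2:**
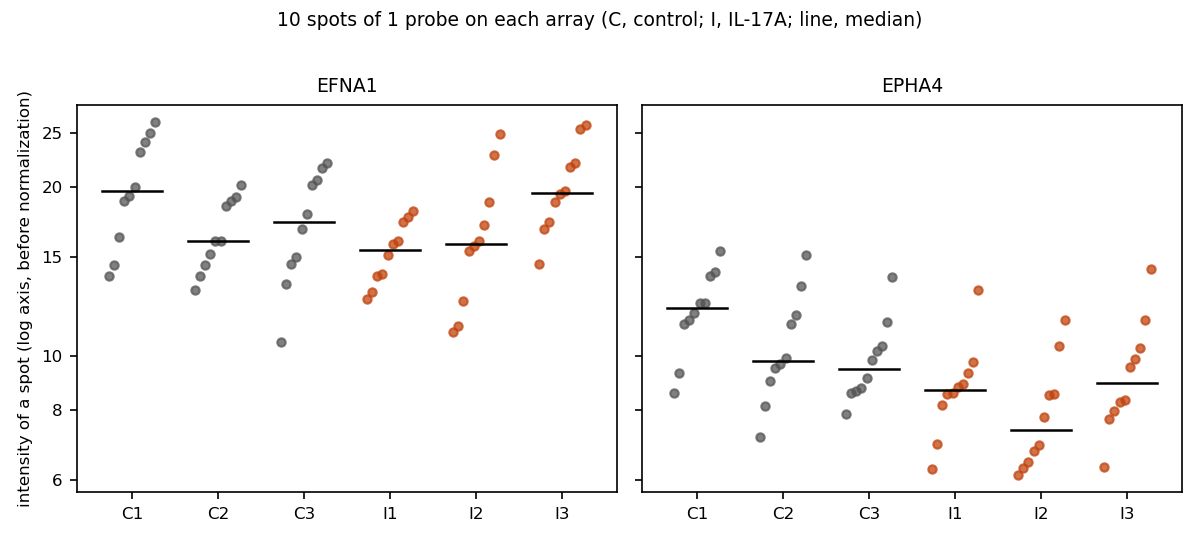
Intensity of each of 10 spots (vertical axis, log scale, before normalization between arrays) of the EFNA1 and the EPHA4 probe on the 6 arrays (horizontal axis; C, control; I, IL-17A), with a line at the median. The EPHA4 medians were 7.36 to 8.93 with IL-17A and 9.47 to 12.2 in the controls, whereas those of EFNA1 were mixed between the groups, and the spots of all arrays overlap.

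Over the 10 genes, 9 could be tested, EFNB3 being the one left out. At the 1.5-fold and unadjusted p thresholds 0 were called as higher and 2, EFNA2 and EPHB6, as lower, where 0.814% and 1.11% of all tested genes were. The arrays did not overlap for 1 higher gene, EFNA3, and for 4 lower ones, EFNA2, EFNB1, EPHA4 and EPHB6, where this held for 21.4% and 19.3% of all tested genes. In all, 4 were higher and 5 lower, with a median log2 difference of -0.01, against 0.00 over all tested genes. These counts include the contrast on which EFNA3 was selected, and nothing is read from them.

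**Figure D3:**
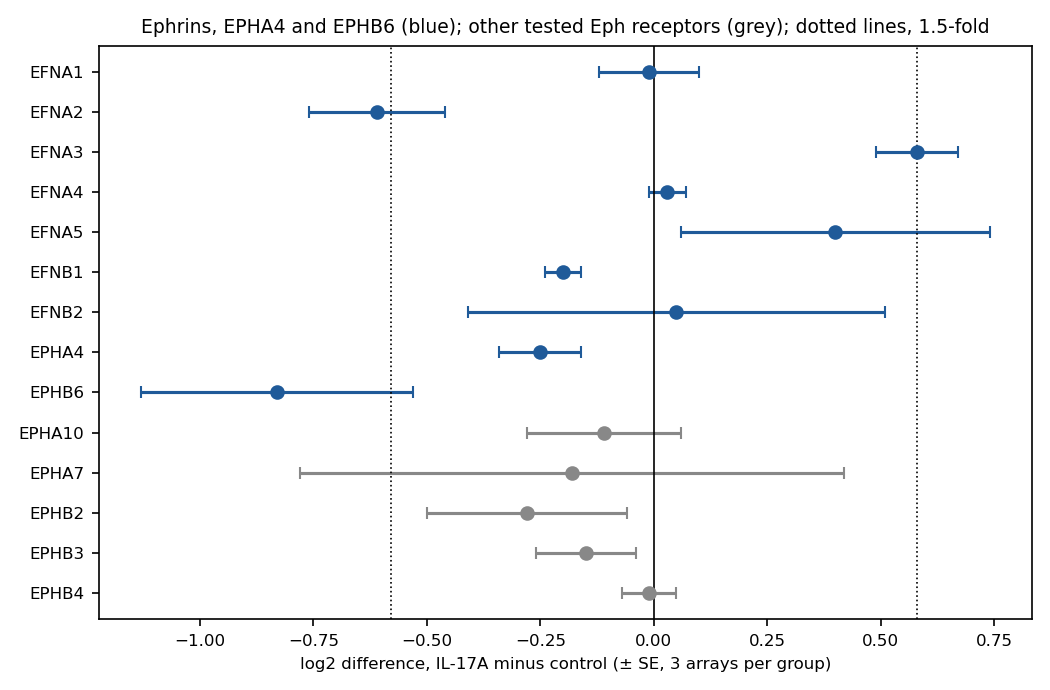
Log2 difference, IL-17A minus control, with its standard error (horizontal axis, 3 arrays per group) for the 9 tested genes of the family (blue) and the other tested Eph receptors at their brightest probe (grey); dotted lines mark 1.5-fold. EFNA3 lies at 0.58 and EFNA2 and EPHB6 at -0.61 and -0.83, and the grey receptors lie between -0.28 and -0.01. Blue against grey is no independent comparison, since EPHA4 and EPHB6 were taken from the receptors with results known.

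The other Eph receptors are what was left after EPHA4 and EPHB6 were taken with results of these arrays known. They are therefore no independent comparison for the chosen receptors. They were measured by probes for 12 genes. Of these, EPHA10, EPHA7, EPHB2, EPHB3 and EPHB4 were well above background on at least 3 arrays and were tested, while EPHA1, EPHA2, EPHA3, EPHA5, EPHA6, EPHA8 and EPHB1 were not. Limma called 0 of the 5 genes, 0 had an unadjusted p under 0.05, and the methods' t-test called 0. At the brightest probes all 5 differences were below 0, with a median of -0.15 on the log2 scale. EPHB2, a receptor of B-type ligands, had the widest difference, at means of 5.58 ± 0.44 with IL-17A and 5.85 ± 0.10 without it (normalized log2 signal, SD, n = 3 each; log2 difference -0.28, SE 0.22, limma adjusted p = 0.430). EPHB4, the main partner of EFNB2 on veins, differed by -0.01 (SE 0.06, limma adjusted p = 0.884), EPHB3 by -0.15 (SE 0.11, adjusted p = 0.385), EPHA7 by -0.18 (SE 0.60, adjusted p = 0.866) and EPHA10 by -0.11 (SE 0.17, adjusted p = 0.689). Dimmer probes of EPHA10 (0.32), EPHB4 (0.38) and EPHB2 (0.22) were higher with IL-17A, so that the probes of these genes differed in sign, and none had an adjusted limma p under 0.05. These p-values do not show that the receptors stayed level, and the standard errors of 0.06 to 0.60 set the size of difference that could be seen.

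Ephrin and Eph signals pass through a set of kinases, adaptors and other partners, of which a list of 49 genes was on the array and 48 were tested. Of these, 24 genes were higher and 24 lower with IL-17A, with a median log2 difference of -0.01. At the fold and p thresholds 0 were called as higher and 1 as lower, against 0.814% and 1.11% of all tested genes. An unadjusted limma p under 0.05 was found for 4 higher and 5 lower of the 48 genes, against 16.9% and 14.8% of all tested genes. The arrays did not overlap for 8 higher and 6 lower genes, against 21.4% and 19.3%. With adjustment, 1 gene rose and 1 fell, against 4.37% and 3.48% of all tested genes. PICK1, which encodes a PDZ protein that binds ephrin-B tails, read 9.51, 9.57 and 9.54 on the IL-17A arrays (normalized log2 signal) and 9.26, 9.32 and 9.37 on the control arrays. Each IL-17A array exceeded each control array, and PICK1 rose by 0.22 (SE 0.04, limma adjusted p = 0.0466). RGS3, whose product couples ephrin-B reverse signaling to G proteins, had 8.26, 8.27 and 8.31 with IL-17A and 8.57, 8.52 and 8.44 in the controls. Here every IL-17A array was below every control array, and RGS3 fell by 0.23 (SE 0.05, limma adjusted p = 0.0491). Both adjusted p-values lie just under 0.05, and with the scan as a block, after scaling to the 75th percentile, and without any 1 of the 6 arrays 0 genes of the list were past it (unadjusted limma counts of 1 to 4 higher and 2 to 6 lower). The log2 differences kept their direction within the shared scan, 0.19 for PICK1 and -0.25 for RGS3.

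The gene called as lower, GRIP1, encodes a further PDZ partner of ephrin-B and was near the background. Its normalized log2 signal was 1.54, 1.63 and 2.36 with IL-17A and 2.55, 2.92 and 2.51 in the controls, and it was well above background on 1 of 3 IL-17A arrays and all 3 control arrays. It passed the filter on detection through the controls, where it is high, so that its call carries no weight. The measured log2 difference of -0.82 (SE 0.25) had an adjusted limma p of 0.0935, and it was -0.06 with normexp. Among the 5 ephrin-B PDZ and reverse signaling partners, 1 was higher and 4 lower (median -0.23). The lower genes include GRIP1, and GRIP2, which was dim at intensities of 5.37 to 9.26 (log2 difference -0.23, SE 0.18). SDCBP, also counted as lower, differed by -0.02, so that nothing is read from this count. The 10 SH2 and SH3 adaptors had 8 higher and 2 lower, 0 of them with an adjusted limma p under 0.05 and 2 with an unadjusted one, and NCK2 differed by 0.28 (adjusted p = 0.0961). The 7 non-receptor tyrosine kinases had 3 higher and 4 lower, with SRC at -0.25 (limma adjusted p = 0.0824). SRC was dim, at intensities of 13.8 to 14.6 with IL-17A and 15.5 to 18.3 in the controls, and differed by -0.04 with normexp.

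**Figure D4:**
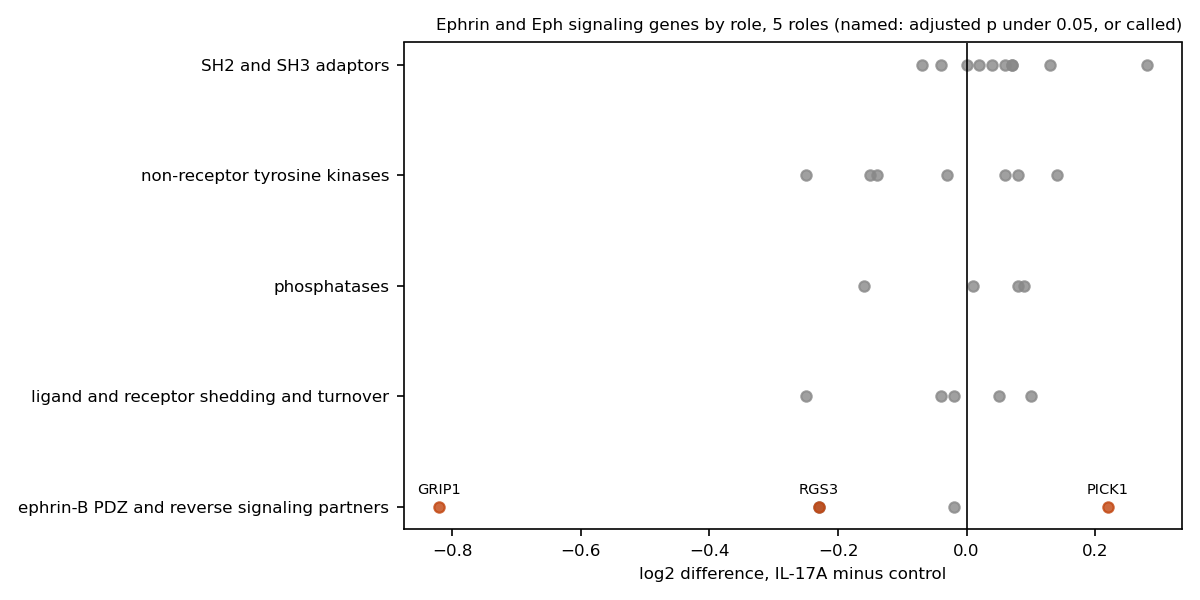
Log2 difference, IL-17A minus control (horizontal axis), of tested signaling genes of 5 roles at their brightest probe, each point a gene, in rows by role; orange points with names had an adjusted limma p under 0.05 or were called. PICK1 lies at 0.22, RGS3 at -0.23 (over GRIP2 at the same value) and GRIP1 at -0.82, and the other genes shown lie between -0.25 and 0.28.

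Over the 6 arrays, the genes whose normalized log2 signal followed that of EFNA3 most closely, among 12493 genes with a mean of at least 4, were FAM219B (Pearson r = 0.998), RNF208 (0.997), DHX38, CBS and CD53 (0.994 each). TRAF7, SKP1 and ZMPSTE24 ran opposite to it at -0.995. Their differences with IL-17A were smaller than that of EFNA3, from 0.10 for CBS to 0.31 for DHX38, and from -0.07 for SKP1 to -0.34 for ZMPSTE24. In all, 717 genes (5.75%) had an r above 0.9 and 687 (5.51%) one below -0.9. The points share the groups, the scans and the normalization, and likeness over 6 arrays is given as a description.

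The marker lists of other cell types had medians below 0. Of the genes described here, EFNA2, EPHA4, EPHB6 and EFNB1 were lower and EFNA3 was higher, and a part of such cells in these results was not tested. The lists held both signs, with ESAM (0.12), COL1A1 (0.04), PDGFRB (0.08), CD2 (0.51), CD3G (0.12) and ZAP70 (0.05) higher with IL-17A. The other tested markers of the endothelial, mesenchymal, T and NK cell and monocyte lists were lower. Of the markers of other cell types 1, the endothelial EMCN, was called as lower and 0 of the mesenchymal, T and NK cell and monocyte markers were called. EMCN had an intensity of 4.93 to 6.87 with IL-17A and 12.4 to 14.7 in the controls. It was well above background on 2 of 3 IL-17A arrays and all 3 control arrays. It needed the controls, where it is high, to pass the filter on detection, so that its call carries no weight. CD3E differed by -0.46 (limma adjusted p = 0.0401) and CD2 by 0.51 (limma adjusted p = 0.0539), and both were dim. The median log2 difference was -0.30 over 9 tested endothelial markers, -0.21 over 4 mesenchymal, -0.11 over 7 T and NK cell and -0.18 over 4 monocyte markers, against 0.12 over 10 B lineage markers. The summed signal of the endothelial list was 350 to 426 with IL-17A and 383 to 461 in the controls, with 7 of 10 well above background on all 6 arrays and KDR on none. That of the monocyte list was 159 to 168 and 187 to 216, with CSF1R, FCGR3A, S100A8 and S100A9 on none of the arrays. T and NK cell markers summed to 1070 to 1220 and 1210 to 1520, with KLRD1, TRAT1 and NCAM1 on none, and mesenchymal markers to 41.9 to 47.8 and 41.9 to 57.2, with COL1A2, COL3A1, DCN, LUM, THY1 and PDGFRA on none. CD4 alone made up most of the T and NK cell sum, at 856 to 988 with IL-17A and 982 to 1270 in the controls. B lineage markers summed to 68900 to 74300 and 66200 to 70800. GAPDH differed by 0.01 and ACTB by -0.10 on the log2 scale. In RNA from whole samples, fewer expressing cells and less RNA per cell cannot be told apart.

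Across the processing settings the direction of EFNA3, EFNA2, EPHB6, EPHA4 and EFNB1 stayed the same, while the sizes did not. The log2 difference of EFNA3 ran from 0.13 with normexp to 0.73 with the scan as a block, that of EFNA2 from -0.77 to -0.06, that of EPHB6 from -1.12 to -0.12, that of EPHA4 from -0.34 to -0.03 and that of EFNB1 from -0.21 to -0.17. The smallest values of the first 4 genes came with normexp, which adds an offset of 50 to every signal and so draws dim signals together. EFNB2 ran from -0.73 to 0.44 and EFNA1 from -0.15 to 0.05, each on both sides of 0.

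**Figure D5:**
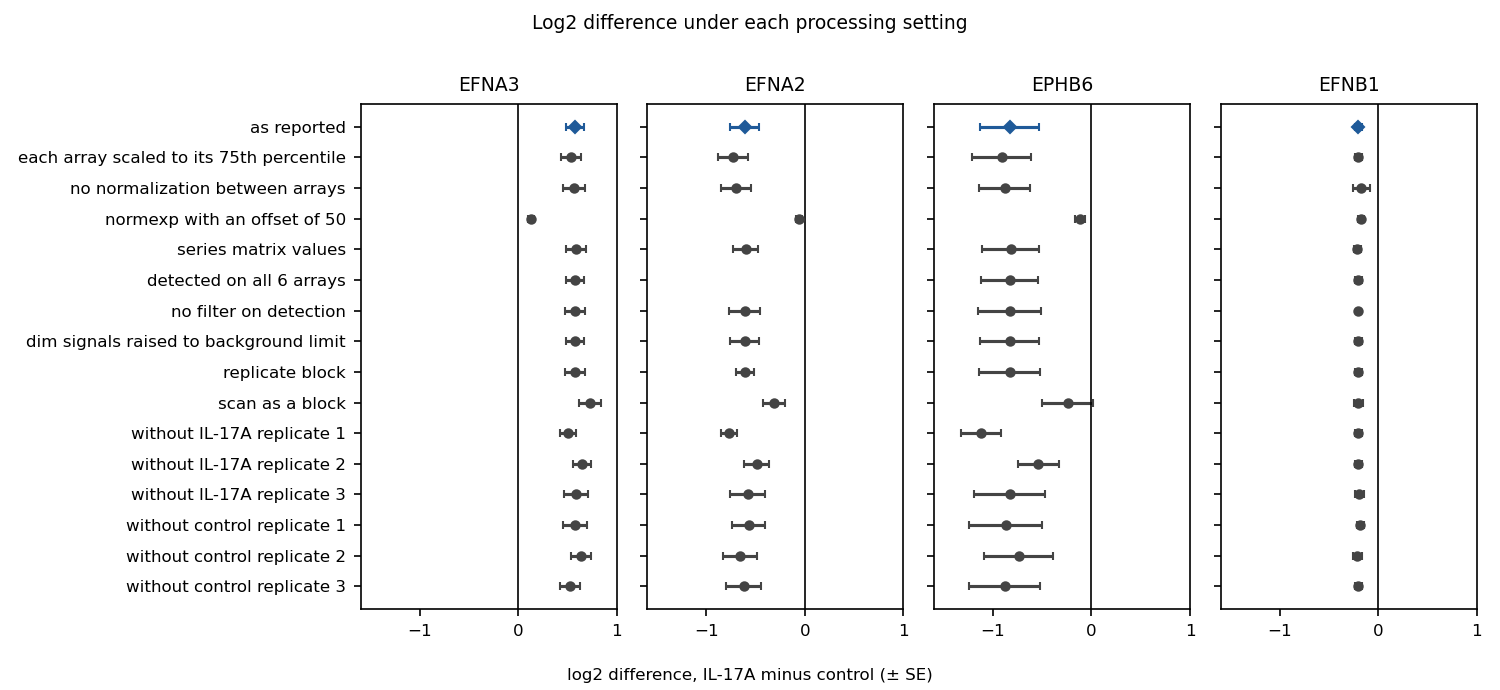
Log2 difference, IL-17A minus control, with its standard error (horizontal axis) of EFNA3, EFNA2, EPHB6 and EFNB1 under each processing setting (rows), the reported value in blue; EFNA2 has no point where it failed the filter for all 6 arrays. The points of each gene stay on 1 side of 0, and those with normexp lie nearest to 0, at 0.13 for EFNA3, -0.06 for EFNA2 and -0.12 for EPHB6.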

How the data were processed

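For each array the authors deposited the scanner output of Agilent Feature Extraction 11.0.1.1 (version from the submitters' processing notes), with 1 intensity per spot after background subtraction and no normalization between arrays. The deposited files also hold the median brightness of each spot and its local background as intensity and flags of 0 or 1 for each spot. The series matrix, an alternative here, holds the log2 values of the authors after their quantile normalization. Control spots were dropped together with 61 values of non-uniform spots. Intensities had a floor of 1 and were averaged per probe as log2 values, and the 6 arrays were quantile normalized with limma 3.58.1 in R 4.3.3. A probe was well above background where at least 50% of its spots were flagged as positive, significant and well above background, and probes so on at least 3 of 6 arrays were tested (23945 of 34127). No spot was saturated.

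Gene names came from a match of each probe's RefSeq accession to the gene table of GRCh38.p14. The array files are annotated on hg19, so no gene coordinates were taken across. Each gene stands at its brightest tested probe. Groups were taken from the sample titles. The groups were compared by limma, two-sided, with no covariate, and p-values were adjusted by the Benjamini-Hochberg method across the tested probes. SE is the moderated standard error of limma. The number of arrays limits the precision, and an exact permutation test of 3 arrays against 3 cannot give a p below 0.1.

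The 10 genes, the lists of receptors, signaling genes and cell type markers, and the rule for the named genes were chosen with earlier results of these data known. The rule takes every probe of the 10 genes, the tested probes of the other Eph receptors, signaling genes with an adjusted p under 0.05, 3 genes on either side of the EFNA4, EFNA3 and EFNA1 cluster, and the 5 genes most like and 3 most unlike EFNA3. GRIP1, GRIP2, SDCBP, NCK2, SRC and the marker genes were picked with their values in view. Alternatives were scaling to the 75th percentile, no normalization, normexp with an offset of 50 on the median brightness, the series matrix values, other detection filters, dim signals raised to a floor, limma with a variance trend, replicate and scan blocks, the methods' t-test, other thresholds, any tested probe, and leaving out each array. The procedure was tested on simulated data. Some roles within the signaling list are not reported here by name, though the list counts include them.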

Additional observations from a re-analysis of the deposited data

How the results depend on the processing

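Of all tested probes 522 were called, against 15 with normexp, 299 with detection on all 6 arrays, 978 with no filter, 82 at a fold change of 2 and 1818 at an adjusted p under 0.05 alone; without 1 array the count was 409 to 658. Scaling to the 75th percentile moved the split of called genes from 42.4% to 25.5% higher, and no normalization to 28.6%. Of the 10 ephrin and Eph genes 2 were called, but 0 with normexp or at a fold change of 2, and 1 with detection on all 6 arrays (EPHB6), with the methods' t-test (EFNA2) and with the scan as a block (EFNA3, with EFNA2 and EPHB6 no longer called). With the series matrix values 3 were called, EFNA3 as higher and EFNA2 and EPHB6 as lower. Without 1 array the count of these genes was 0 to 2, with 0 when control replicate 1 and 1 (EFNA3) when IL-17A replicate 2 or 3 was left out. The log2 difference of EFNA3 (0.58) was 0.13 with normexp, 0.73 with the scan as a block and 0.51 to 0.65 without 1 array, and that of EFNA2 (-0.61) was -0.06, -0.31 and -0.77 to -0.49. Since only 1 scan held both groups, the scan block equals the value within that scan. In the signaling list 1 gene was called, but 0 with normexp, the series matrix, detection on all 6 arrays, a floor on dim signals, a fold change of 2, or without control replicate 2 or either of IL-17A replicates 1 and 2, and 2 by adjusted p alone; the range without 1 array was 0 to 1. The count for the other Eph receptors was 0 under each setting. The replicate numbers do not pair the samples (correlations of same-numbered deviations -0.0871, -0.0022 and -0.0466); with the replicate block 1 of the 10 genes (EFNA2) and 527 probes were called, EFNA3 was at 0.58, and 0 signaling genes had an adjusted p under 0.05. Apart from the construction of these settings, the cause was not tested. EFNA2 and EFNA5 were not well above background on every array and EFNB3 on none, which limits their values.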

Other observations

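The signal of EFNB2 fell with the last number of the barcode entry in the array headers, a pattern looked at after its values were seen. This number is taken here as the position of the array on its slide, which the headers do not state. Its intensity was 19.3 and 17.2 on the arrays at position 1 (control replicate 1 and IL-17A replicate 2), 11.1 and 13.3 at position 2 (control replicate 2 and IL-17A replicate 3), 7.40 at position 3 (control replicate 3) and 6.59 at position 4 (IL-17A replicate 1). Such a strict fall from position 1 to 4 was found in 65 of 14747 tested genes (0.441%) and a strict rise in 47 (0.319%). None of the other 8 tested ephrin and Eph genes showed either order. The cause was not tested.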
